A study of Mus musculus with 16 samples.

Results

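Expression arrays of cells labelled as CCR2- tumour-associated macrophages (TAMs) were compared between mice that lacked endothelial Rbpj and their controls. The members are 8 of the 16 arrays of the series, chosen by their titles: 4 titled TAM CCR2- RbpjiΔEC and 4 titled TAM CCR2- Control. All genes with a usable probe set were described, 18194 in all.

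Female C57BL/6N mice carried ID8-luc, a mouse ovarian cancer line that grows in the peritoneal cavity, and the cells were taken from there. Mice of both genotypes were given 1 mg tamoxifen once by mouth at an age of 8 to 12 weeks, and the tumour cells intraperitoneally 3 weeks later, per the labels. The cavity was washed out after 4 weeks of tumour growth, and CD45+ CD11b+ F4/80+ cells were sorted into a CCR2+ and a CCR2- fraction. RbpjiΔEC is the labels' name for mice in which tamoxifen removed Rbpj from endothelial cells, and the gene was not the target in the sorted cells themselves. The labels name neither the Cre driver nor the alleles that the control mice carried. They do not say whether the 4 arrays of a group come from separate animals, so the p-values measure the spread between these samples, which may be technical.

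Rbpj is the DNA-binding protein through which activated Notch receptors switch on their target genes. Notch signalling is set off by ligands on neighbouring cells, and endothelial cells are a major source of such ligands for blood vessels and for myeloid cells near them. The normal peritoneal cavity holds large resident macrophages that depend on the transcription factor Gata6, smaller macrophages that descend from CCR2+ monocytes, and many B cells, among them B-1 cells that also carry CD11b. The comparison addresses whether loss of endothelial Rbpj alters the expression of the cells labelled CCR2-.

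The labelled cell type was first set against its defining genes, on a log2 scale normalized over all 16 arrays. The deposited columns of the 2 labels appeared to have been scaled differently, so processing went with the label here. Ms4a1, which encodes the B cell surface protein CD20, read 13.52 to 13.62 in the 8 arrays labelled CCR2-, against 6.52 to 7.66 in the 8 labelled CCR2+. Cd79a, which carries the signal of the B cell receptor, read 12.53 to 12.93 against 7.35 to 7.84. Csf1r, the receptor for the macrophage growth factor CSF1, read 9.13 to 11.02 against 12.98 to 13.31. Adgre1, which encodes the sort marker F4/80, read 8.88 to 9.48 against 13.05 to 13.41, and Itgam, which encodes CD11b, 9.12 to 9.56 against 12.57 to 12.83. The ranges of Lyz2, a lysozyme gene, lay closer, at 11.47 to 13.10 against 13.38 to 13.80. The transcript of Ccr2 itself read 7.58 to 11.51 in the arrays labelled CCR2- and 6.87 to 9.27 in those labelled CCR2+, so the 2 ranges overlapped, and their medians, 9.27 and 7.70, ran against the label. The data therefore go against the label as a description of macrophages alone: B cell genes were far above their values in the other fraction. Macrophage genes were below theirs, most of them far below and Lyz2 less so. The samples are called the CCR2- arrays below, a name for the label only. In such bulk samples fewer cells of a type and less RNA per cell cannot be told apart.

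The following values are log2 intensities, quantile normalized over the 8 CCR2- arrays, with control arrays 1 to 4 and RbpjiΔEC arrays 1 to 4 in that order, and differences are RbpjiΔEC minus control. A difference of 1 is a doubling of the intensity. The probe sets for bacterial trp, for which mouse cells have no transcript, read 6.09 to 6.71, and a gene was counted as clear of this background when its mean lay above 7.71, which held for 10191 genes. Mean deposited intensity was 481 to 762 per array. Control array 1 had the lowest mean and correlated less with the other arrays, with r from 0.970 to 0.985, than those did among themselves, with r from 0.978 to 0.993 over all genes. Arrays of different genotype correlated at 0.978 to 0.991 and arrays of the same genotype at 0.970 to 0.993. The 3′ minus 5′ signal of the actin control probe sets, a measure of RNA integrity, was 0.341 ± 0.0794 (SD, n = 4) in RbpjiΔEC arrays, and in control arrays it was 0.365 ± 0.0345 (exact permutation p = 0.629, two-sided, with 0.0286 the smallest p possible). The same measure for Gapdh was 0.163 ± 0.0916 and 0.106 ± 0.142 (exact p = 0.629). The 18S ribosomal RNA control signal was 12.3 ± 0.4 and 12.3 ± 0.851 (exact permutation p = 0.971). It was lowest in control array 1 (11.23), followed by RbpjiΔEC array 1 (11.78), and highest in control array 2 (13.04). The values of these actin, Gapdh and 18S controls are from before normalization.

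**Figure D1:**
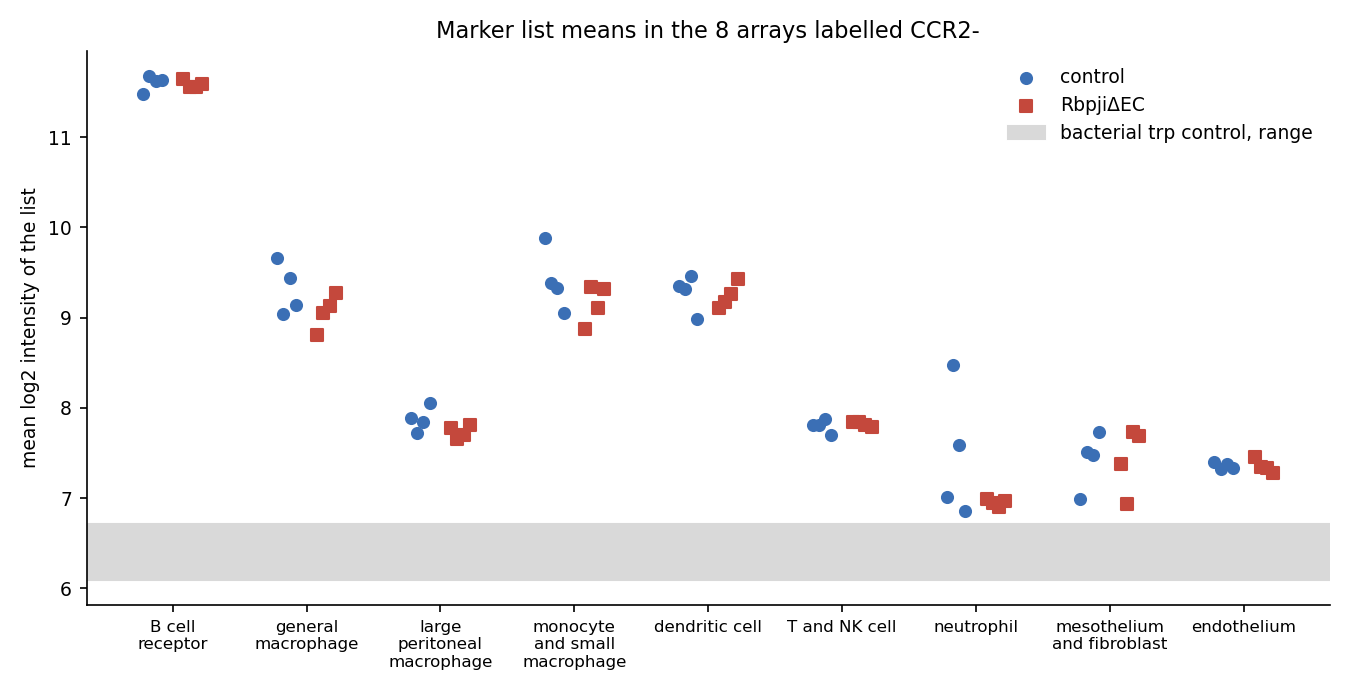
Mean log2 intensity of 9 cell type marker lists in each of the 4 control (circles) and 4 RbpjiΔEC (squares) CCR2- arrays, with the range of the bacterial trp control shaded. The neutrophil list stands at 8.47 and 7.59 in control arrays 2 and 3 and between 6.86 and 7.01 in the other 6 arrays; heights of different lists are not comparable because their probe sets differ.

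No gene passed the test between genotypes. Of 18194 genes, limma called 0 (0%) at a Benjamini-Hochberg adjusted p under 0.05, and the smallest adjusted p was 1. At an unadjusted p under 0.05, 179 genes were higher in RbpjiΔEC (0.984%) and 190 lower (1.04%), together 369, where the threshold alone would give 910. The 4 arrays of each group did not overlap for 143 genes on the higher side (0.786%) and 136 on the lower side (0.747%). The differences ran from -1.17 to 0.70, with a median of -0.0018, and 8941 were above 0 and 9253 below.

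The precision of each difference was described by its 95% interval, not adjusted for the number of genes. The 95% interval of the difference had a median half-width of 0.25 log2 units. It lay within -1 and 1 for 18037 genes (99.1%) and within -0.5 and 0.5 for 15469 (85%). Among the 9097 genes above the median level of 8.04 these shares were 98.9% and 82.6%. The shares over all genes include those not clear of the background. Nor do the intervals give the size that the adjusted test could call. Clec4d, at -0.61 with an interval of -0.82 to -0.39, was not called.

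**Figure D2:**
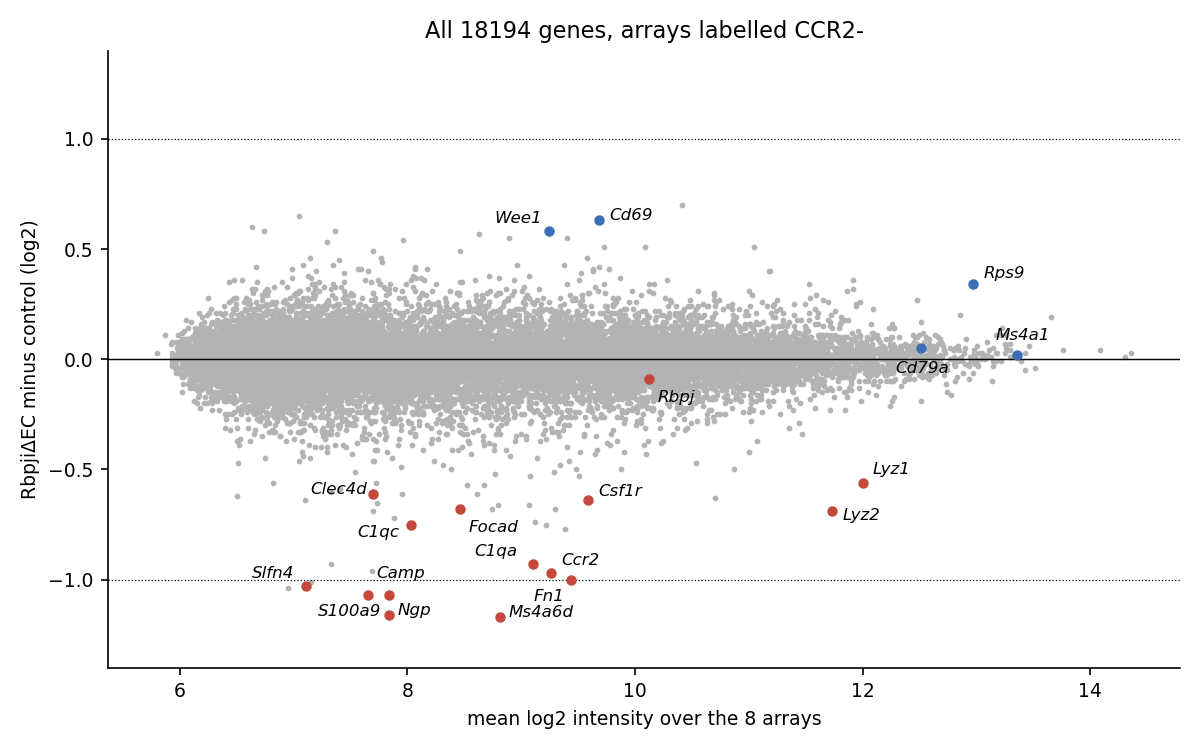
Difference between genotypes (RbpjiΔEC minus control, log2) against the mean log2 intensity over the 8 CCR2- arrays for all 18194 genes, with genes named in the text in colour. The genes beyond the dotted line at -1 are all on the lower side, no gene reaches 1, and none of the points passed the adjusted test.

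Genes of neutrophils and monocytes made up most of the largest differences. A difference of at least 1 in size was measured for 7 genes, all negative: Ms4a6d, Ngp, S100a9, Camp, Chil3, Slfn4 and Lcn2. Ngp, a neutrophil granule protein, read 7.47, 10.34, 8.67 and 7.21 in control arrays and 7.35, 7.28, 7.15 and 7.26 in RbpjiΔEC arrays, a difference of -1.16 (SE 0.58). S100a9, a calcium-binding protein abundant in neutrophils, read 7.37, 10.15, 8.92 and 7.04 against 7.38, 7.31, 7.05 and 7.47, a difference of -1.07 (SE 0.59). Camp, the antimicrobial peptide cathelicidin, read 7.27, 9.92, 8.54 and 7.02 against 7.04, 7.15, 6.95 and 7.34 (difference -1.07, SE 0.54). In each of these genes control arrays 2 and 3 were high, and control arrays 1 and 4 lay within or close to the RbpjiΔEC range.

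Lcn2, an iron-binding antibacterial protein, had the same pattern, with 9.40 and 7.92 in control arrays 2 and 3 and 6.52 to 6.82 elsewhere (difference -1.01). Chil3, a chitinase-like protein of neutrophils and monocytes, read 9.39 and 7.31 in those arrays and 6.33 to 6.69 elsewhere (difference -1.04). Ltf (lactoferrin) and S100a8 followed with differences of -0.96 and -0.93. Of the 14 neutrophil list members measured, 13 had a negative difference, with a median of -0.34. Without control arrays 2 and 3 the median of the list was 0.01, and S100a9, S100a8 and Ltf stood at 0.10, 0.04 and 0.02. Only 2 of the 14 members were clear of the background over the 8 arrays. The high values were thus those of 2 of 4 control arrays. These 2 were left out because they were the highest, so that fit cannot decide whether the genotype had a part.

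Slfn4, a Schlafen gene of monocytes and macrophages, was the member of the 7 whose groups did not overlap. It read 6.89, 8.55, 7.85 and 7.20 in control arrays and 6.63, 6.18, 6.81 and 6.77 in RbpjiΔEC arrays (difference -1.03, SE 0.32, limma adjusted p = 1). Control arrays 2 and 3 were again the highest, and without them its difference was -0.46. The neutrophil list was high in those same arrays; its part in the Slfn4 value was not tested beyond that.

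The smallest p of all genes belonged to Clec4d, an activating C-type lectin receptor of myeloid cells that binds microbial glycolipids. Clec4d read 8.03, 7.97, 7.93 and 8.06 in control arrays and 7.38, 7.34, 7.21 and 7.64 in RbpjiΔEC arrays. The groups did not overlap, and the difference was -0.61 (SE 0.10, unadjusted p = 0.00013 by limma, adjusted p = 1). Its difference was -0.66 without control arrays 2 and 3, the arrays with high neutrophil genes, in a fit chosen after seeing the data. The part of myeloid cell number in the Clec4d value was not tested. Clec4e (Mincle), the related receptor encoded near it, read 6.96, 7.09, 6.94 and 7.40 against 6.76, 6.43, 6.45 and 6.52 (difference -0.56, SE 0.12), close to the background and with a second probe set at -0.03. Trem3, another activating receptor of myeloid cells, read 6.94 to 7.05 against 6.61 to 6.70 (difference -0.33, SE 0.07). Each of the 3 receptors had all 4 RbpjiΔEC arrays below all 4 control arrays, as had 0.747% of all genes. None of the 3 was clear of the background by its mean over the 8 arrays. Clec4e and Trem3 were named after their values had been seen, so the count of 3 follows from the choice.

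On the higher side the smallest p values also lay near the background. Sfrp4, a secreted antagonist of Wnt signalling, read 7.03, 7.09, 7.04 and 7.11 in control and 7.88, 7.60, 7.68 and 7.43 in RbpjiΔEC arrays (difference 0.58, SE 0.10, unadjusted p = 0.000201 by limma). Tm9sf1, a membrane protein of the secretory pathway, read 7.39 to 7.65 against 7.93 to 8.07 (difference 0.46, SE 0.08). Gm15934, a predicted gene, read 6.12 to 6.69 against 6.86 to 7.0 (difference 0.60). The groups did not overlap in any of the 3, as in 0.786% of all genes on the higher side. Sfrp4 and Gm15934 were not clear of the background. These 3 were also named after their values had been seen, so that count follows from the choice as well.

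Among genes above the median level of 8.04, Focad had the smallest p. Focad encodes focadhesin, a protein of focal adhesions. It read 9.26, 8.67, 8.65 and 8.62 in control arrays and 8.09, 8.04, 8.01 and 8.36 in RbpjiΔEC arrays, with no overlap (difference -0.68, SE 0.15, unadjusted p = 0.0015 by limma). Without control array 1, the highest, the difference was -0.53. Wee1, the kinase that holds back entry into mitosis, read 9.17, 8.80, 8.83 and 8.98 against 9.31, 9.53, 9.89 and 9.38 (difference 0.58, SE 0.14), and its other probe set gave 0.52. Every RbpjiΔEC array lay above every control array for Wee1.

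Cd69, an early activation marker of lymphocytes that also holds cells in tissue, read 9.77, 8.97, 9.81 and 8.93 in control arrays and 10.01, 9.98, 10.20 and 9.81 in RbpjiΔEC arrays (difference 0.63, SE 0.21). The lowest RbpjiΔEC array and the highest control array were equal to 2 decimals. Ddit4, a stress-induced inhibitor of the growth kinase mTORC1, had the largest positive difference of all genes, 0.70 (SE 0.28). It read 10.17, 9.71, 10.29 and 10.05 against 9.93, 10.73, 11.48 and 10.89, and RbpjiΔEC array 1 lay within the control range. Fkbp5, a glucocorticoid-induced chaperone partner, read 8.54 to 9.61 in control and 8.87 to 10.96 in RbpjiΔEC arrays (difference 0.55, SE 0.42), with RbpjiΔEC array 3 the highest and other probe sets down to -0.05. Ddit4 and Fkbp5 were named after their values had been seen.

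For several other genes of small p the probe sets of the gene differed. Rps9, a protein of the small ribosomal subunit, read 12.71 to 12.91 in control and 13.01 to 13.27 in RbpjiΔEC arrays (difference 0.34, SE 0.08), but its 3 probe sets ranged from -0.07 to 0.34. Chaserr, a long noncoding RNA, had 0.34 on one probe set and -0.13 on the other. Crtc3, a coactivator of the transcription factor CREB, had -0.46 and 0.09. Zfyve27, a protein of endosomal transport, ranged from -0.33 to -0.02 over 4 probe sets. Ckap4, a protein of the endoplasmic reticulum, held to 0.20 to 0.27 over its 4, with 11.17 to 11.34 in control against 11.47 to 11.61 in RbpjiΔEC arrays. Il6ra, the receptor chain for interleukin-6, held to 0.28 and 0.30, with 11.31 to 11.53 against 11.51 to 11.84.

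**Figure D3:**
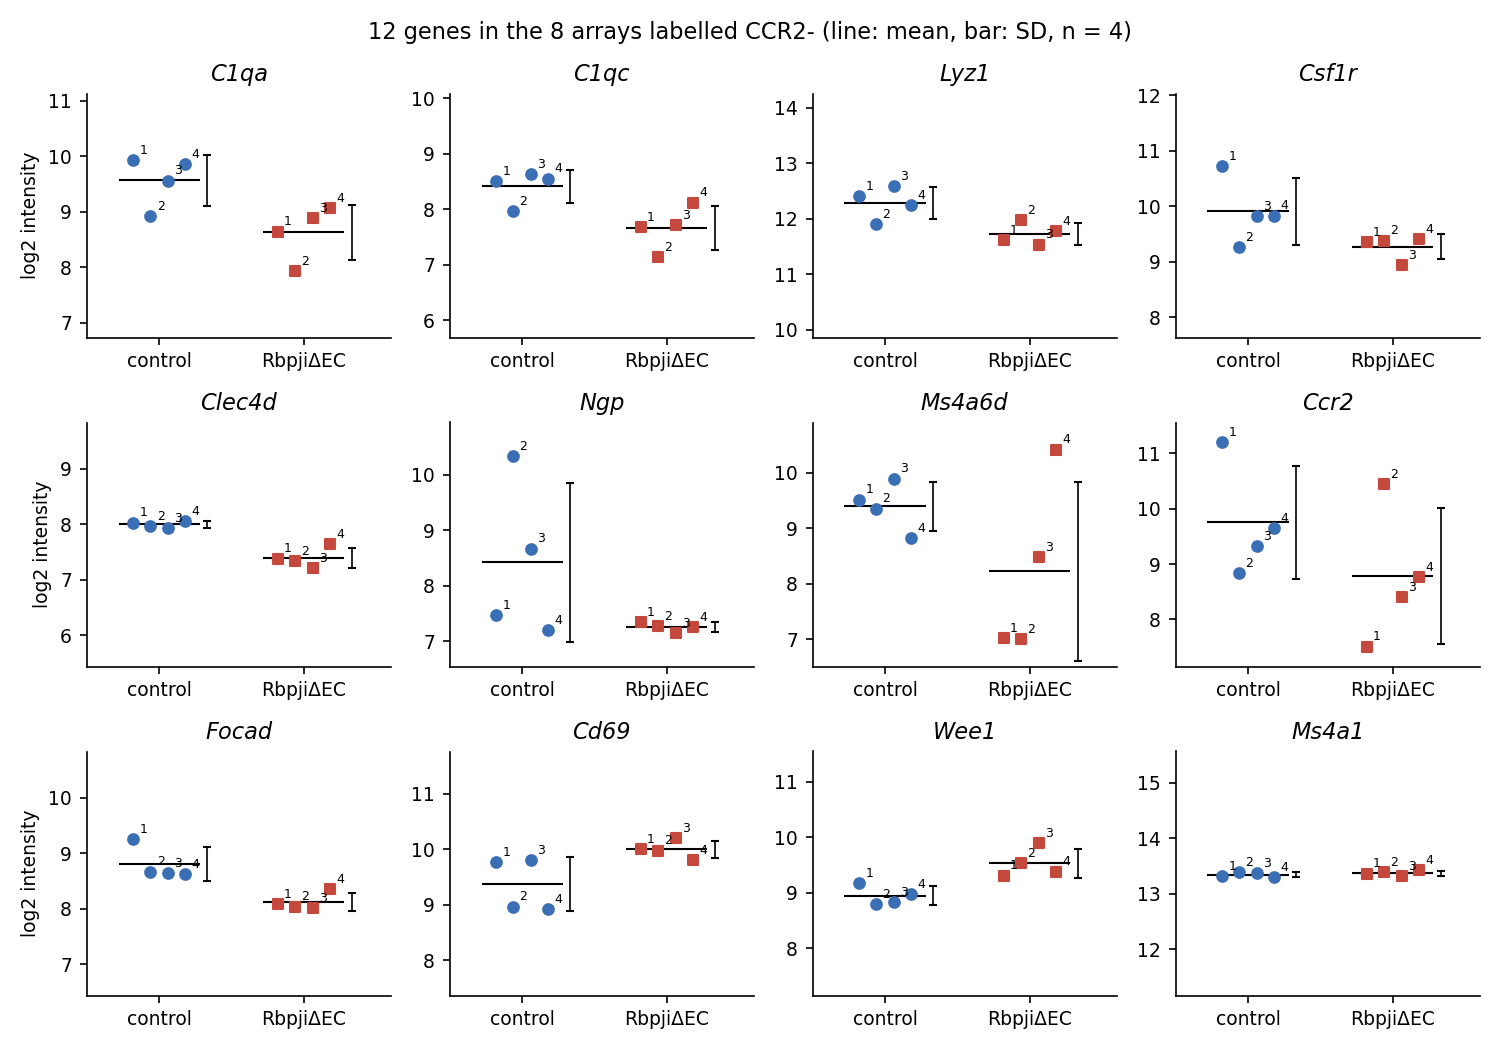
Log2 intensity of 12 genes in the 4 control (circles) and 4 RbpjiΔEC (squares) CCR2- arrays, numbered by array, with the mean as a line and the SD as a bar, on axes of equal span. Ngp is high in control arrays 2 and 3 alone, Clec4d and Focad separate the groups without overlap, and Ms4a1 stays within 13.30 to 13.42.

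Macrophage genes lay mostly on the lower side in RbpjiΔEC, although none passed the test. Of the 17 general macrophage genes measured, 14 had a negative difference, with a median of -0.24 against -0.0018 over all genes, and 4 had an unadjusted p under 0.05, all lower, against 1.04% of all genes. Lyz1, one of the lysozyme genes, read 12.41, 11.90, 12.58 and 12.25 in control and 11.61, 11.97, 11.53 and 11.77 in RbpjiΔEC arrays (difference -0.56, SE 0.15). Its 3 probe sets ranged from -0.56 to 0.15, and Lyz1 and Lyz2 are near-identical copies whose signals a probe set may share. Lyz2 read 12.82, 11.47, 11.88 and 12.18 against 11.16, 11.71, 11.22 and 11.48 (difference -0.69, SE 0.26). In each lysozyme gene control array 2 lay within the RbpjiΔEC range.

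Csf1r read 10.72, 9.26, 9.82 and 9.83 in control and 9.35, 9.38, 8.94 and 9.41 in RbpjiΔEC arrays (difference -0.64, SE 0.26). Control array 1 was the highest, and without it the difference was -0.37, and the 3 probe sets ranged from -0.64 to -0.16. Cd14, a co-receptor for bacterial lipopolysaccharide, read 8.22, 7.55, 7.92 and 8.07 against 7.40, 7.13, 7.72 and 7.64 (difference -0.46, SE 0.17, and -0.37 without control array 1). The other members included Fcgr3, an activating Fc receptor for IgG, at -0.52 (SE 0.32) and -0.23 without control array 1. Cebpb, a myeloid transcription factor, stood at -0.33 and -0.15 without that array, and Cd68, a lysosomal membrane protein, at -0.24 and -0.07. Spi1, which encodes the lineage factor PU.1 of both macrophages and B cells, stood at 0.02, and Cd300a, an inhibitory receptor, at 0.11. Without control array 1 the median of the list was -0.11, and without control array 1 and RbpjiΔEC array 1 it was -0.05. The list mean was 9.04 to 9.66 in control and 8.81 to 9.27 in RbpjiΔEC arrays, so the groups overlapped.

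Among complement genes the 3 chains of C1q, the starter protein of the classical complement pathway that macrophages secrete, all had negative differences. C1qa read 9.93, 8.92, 9.56 and 9.86 in control and 8.64, 7.93, 8.88 and 9.07 in RbpjiΔEC arrays (difference -0.93, SE 0.28, unadjusted p = 0.00835 by limma, adjusted p = 1). C1qc read 8.5, 7.97, 8.63 and 8.55 against 7.68, 7.14, 7.71 and 8.12 (difference -0.75, SE 0.21). In both genes control array 2 was the lowest control and fell within the RbpjiΔEC range, and RbpjiΔEC array 2 was the lowest of all. C1qb read 9.49, 8.54, 9.14 and 8.69 against 8.71, 8.18, 8.55 and 8.76 (difference -0.41, SE 0.21), and its 3 probe sets ranged from -1.10 to -0.41.

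Cfp, which encodes properdin, the stabiliser of the alternative pathway, read 10.32 to 10.84 in control and 9.99 to 10.53 in RbpjiΔEC arrays (difference -0.31, SE 0.15). Of the 10 complement genes measured, 8 were negative, with a median of -0.25. An unadjusted p under 0.05 was reached by 2, C1qa and C1qc, both lower, against 1.04% of all genes. These 2 encode chains of the same protein. Leaving out control array 1 gave a list median of -0.12 and left C1qa at -0.82 and C1qc at -0.72. The general macrophage list and the C1q genes therefore lay on the same side in these arrays, and the part of macrophage number in the C1q values was not tested.

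No gene of the resident and monocyte-derived peritoneal macrophage lists passed the adjusted test. Of 22 large peritoneal macrophage genes, 18 had negative differences but the median was -0.06, and none reached an unadjusted p under 0.05. Gata6 read 7.12, 7.70, 7.89 and 8.05 in control and 7.37, 7.11, 8.28 and 8.12 in RbpjiΔEC arrays (difference 0.03, SE 0.29). Timd4, a receptor for dead cells on resident macrophages, stood at -0.29 (SE 0.26, and -0.19 without control array 1), and Cd5l, a scavenger protein, at -0.33 (SE 0.21). Fn1 (fibronectin) read 11.47, 8.90, 9.50 and 9.86 against 9.51, 8.93, 8.52 and 8.79. Its difference of -1.0 (SE 0.48) was -0.49 without control array 1, and its other probe set gave -0.37. Gata6 differed less between the genotypes than among the arrays of either.

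In the list of monocytes and small macrophages 11 of 15 genes were negative, with a median of -0.11. Ccr2 read 11.19, 8.84, 9.32 and 9.65 in control and 7.51, 10.44, 8.40 and 8.76 in RbpjiΔEC arrays (difference -0.97, SE 0.64). Its extremes were control array 1 and RbpjiΔEC array 1, and without those the difference was -0.08. Ms4a6d, a membrane protein of macrophages, had the largest difference of all genes, -1.17 (SE 0.67), from 9.52, 9.36, 9.90 and 8.83 against 7.02, 7.0, 8.48 and 10.42, with the highest array of all in the RbpjiΔEC group. The 3 probe sets of Ms4a6d ranged from -1.17 to -0.04. Mrc1, the mannose receptor, read 8.88 to 10.43 against 8.39 to 10.07 (difference -0.42, SE 0.40), and it was 0.12 without control array 1 and RbpjiΔEC array 1. Arg1, the arginine-splitting enzyme of alternatively activated macrophages, differed by -0.04 (95% interval -0.25 to 0.16) at 7.58 to 7.90, near the background. Vcam1, an adhesion molecule, differed by 0.25 (SE 0.14) and was not clear of the background.

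Uptake receptors and the sort markers other than Ccr2 had differences no lower than -0.43. Msr1, a scavenger receptor for modified lipoproteins, read 8.02, 7.42, 7.56 and 7.91 in control and 7.24, 7.17, 7.26 and 7.5 in RbpjiΔEC arrays (difference -0.43, SE 0.14), with 4 probe sets from -0.43 to 0.04. By its mean over the arrays Msr1 was not clear of the background. Without control array 1 the same probe set of Msr1 differed by -0.33, and another probe set, then the one of highest mean, by 0.00. Of 20 scavenger and dead cell uptake genes 15 were negative, with a median of -0.05. Itgam read 9.25, 9.16, 9.25 and 9.34 against 8.94, 9.02, 9.03 and 9.12, with no overlap and a difference of -0.23 (SE 0.07). Adgre1 differed by -0.12 (SE 0.13), and Ptprc, which encodes the leukocyte marker CD45, by -0.15 (SE 0.13).

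B cell genes, at high intensity in all 8 arrays, differed little between the genotypes. Ms4a1 read 13.32, 13.38, 13.37 and 13.30 in control and 13.36, 13.38, 13.31 and 13.42 in RbpjiΔEC arrays (difference 0.02, 95% interval -0.13 to 0.17). Cd79a read 12.23, 12.64, 12.46 and 12.62 against 12.46, 12.52, 12.64 and 12.52 (difference 0.05, 95% interval -0.18 to 0.28), and Ighm, the IgM heavy chain, differed by 0.01 (SE 0.11). All 25 B cell receptor genes measured were clear of the background, 14 had a positive and 11 a negative difference, and the median was 0.02. The 1 member with an unadjusted p under 0.05 was Blnk, an adaptor of the receptor, with 11.87 to 12.00 in control and 11.64 to 11.90 in RbpjiΔEC arrays (difference -0.23, SE 0.08). Of all genes, 1.04% reached that threshold on the lower side. The 18 B cell transcription factors had a median of 0.01, with Pax5, the lineage factor, at 0.01 (SE 0.10).

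The 8 follicular B cell genes measured all had a positive difference, with a median of 0.17. Without normalization the median was 0.04, where that of all genes was -0.16. Ccr7, the chemokine receptor that guides lymphocytes into lymph nodes, read 10.18, 10.08, 10.41 and 10.02 in control and 10.31, 10.37, 10.66 and 10.42 in RbpjiΔEC arrays (difference 0.27, SE 0.11, unadjusted p = 0.0384 by limma). Cxcr4, the receptor for CXCL12, read 11.94, 11.66, 11.90 and 11.56 against 11.68, 12.17, 12.31 and 12.18 (difference 0.32, SE 0.15). Klf2, a transcription factor of resting lymphocytes, differed by 0.24 (SE 0.12), and Cxcr5, the receptor for entry into follicles, by 0.17 (SE 0.14), while Tnfrsf13c, the receptor for the B cell survival factor BAFF, differed by 0.01. No single member separated the groups. The mean of the list was 10.33 to 10.58 in control and 10.63 to 10.73 in RbpjiΔEC arrays, which is a description of a list chosen with results known.

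Of the 9 B-1 cell genes measured, 3 were positive and 6 negative, with a median of -0.05. Cd5, a surface marker of B-1a cells, read 7.28 to 8.35 in control and 7.5 to 7.87 in RbpjiΔEC arrays (difference -0.18, SE 0.20). Igha, the IgA heavy chain, had a residual SD of 1.08, with 8.41, 9.86, 11.47 and 8.84 against 9.03, 8.69, 9.88 and 8.27. Its difference of -0.68 (SE 0.61) was 0.35 without control arrays 2 and 3.

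None of the Notch pathway genes passed the test in these cells. Of 33 measured, 21 had a positive and 12 a negative difference, the median was 0.04 (-0.12 without normalization, where the median of all genes was -0.16), and 22 were clear of the background. Among the ligands, Jag1 read 7.73, 7.55, 7.57 and 7.42 in control and 7.44, 7.36, 7.26 and 7.30 in RbpjiΔEC arrays, near the background (difference -0.23, SE 0.09, unadjusted p = 0.0267 by limma). Dll4, the main Notch ligand of endothelium, was at background with 6.71 to 6.95 in the 8 arrays.

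Of the receptors, Notch2, which B cells of the marginal zone need, read 12.93, 12.88, 12.77 and 12.77 against 12.87, 12.75, 12.83 and 12.90 (difference 0.00, 95% interval -0.17 to 0.17). Its second probe set gave 0.22. Notch1 differed by 0.16 (SE 0.13). Rfng, an enzyme that adds sugars to Notch receptors, differed by 0.19 (SE 0.08, unadjusted p = 0.0453 by limma), with its other probe set at -0.05. Adam10, the protease that cuts the receptor after it binds its ligand, differed by 0.15 (SE 0.09). The values of receptors and processing enzymes overlapped between the groups.

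Rbpj itself, not the target in the sorted cells, read 10.43, 10.05, 10.26 and 9.94 in control and 9.79, 10.22, 10.13 and 10.19 in RbpjiΔEC arrays (difference -0.09, 95% interval -0.39 to 0.21). It therefore gives no check of the endothelial deletion. Endothelial genes could not serve for one either, since only 3 of 15 were clear of the background, and Cdh5, the junction protein of endothelium, read 6.44 to 6.62. Among targets, Hes1 differed by -0.06 (SE 0.08), Nrarp, a feedback inhibitor, by -0.09 (SE 0.11) at background, and Dtx1, a Notch target of B cells, by 0.02 (SE 0.12).

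**Figure D4:**
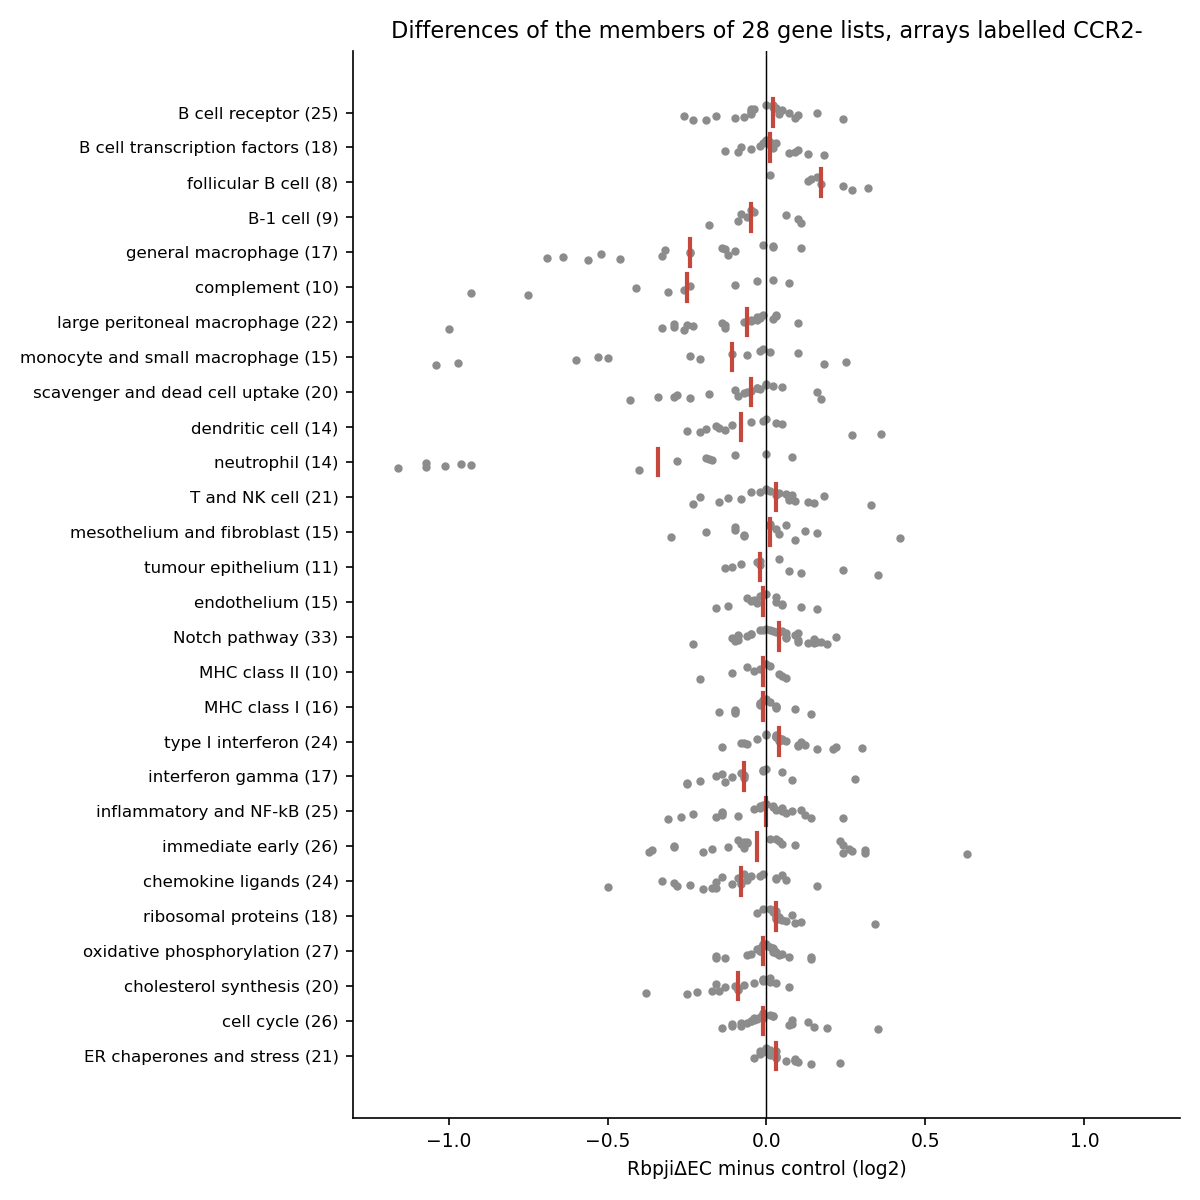
Differences between genotypes (RbpjiΔEC minus control, log2) for every measured member of 28 gene lists, one dot per gene, with the list median as a red bar and the number measured in parentheses. Medians of the neutrophil (-0.34), complement (-0.25) and general macrophage (-0.24) lists lie lowest and that of the follicular B cell list (0.17) highest; no dot passed the adjusted test.

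Interferon-responsive genes had medians near 0, and none passed the test. Irf1, a transcription factor induced by interferon gamma, read 10.82, 10.90, 10.83 and 10.86 in control and 10.59, 10.70, 10.67 and 10.44 in RbpjiΔEC arrays, with no overlap (difference -0.25, SE 0.08, unadjusted p = 0.00991 by limma). Of 17 interferon gamma genes 14 were negative, with a median of -0.07, and Irgm1, a GTPase that guards membranes against intracellular microbes, was the highest at 0.28 (SE 0.23). Of 24 type I interferon genes 18 were positive, with a median of 0.04. Rsad2 (viperin), an antiviral enzyme, read 7.57 to 7.72 in control and 7.74 to 7.97 in RbpjiΔEC arrays (difference 0.21, SE 0.08), with other probe sets down to -0.01.

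Antigen presentation genes had medians close to 0 as well. Of 10 MHC class II genes 4 were positive and 6 negative (median -0.01), with H2-Ab1 at 0.06 (SE 0.09) and Cd74, the invariant chain, at 0.01 (95% interval -0.18 to 0.20). The 16 MHC class I genes had a median of -0.01.

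Other functions gave medians within 0.1 of 0. The 25 inflammatory and NF-kB genes had a median of 0.00, with Tnf at -0.16 (SE 0.14), Il1b at -0.14 (SE 0.20) and Nfkbiz, an inducible NF-kB cofactor, at -0.31 (SE 0.10), whose groups did not overlap. Of the 24 chemokine ligands 19 were negative (median -0.08), led by Ccl6, a macrophage chemokine, at -0.50 (SE 0.31). Control array 1 was the highest for Ccl6 at 12.07, and without it the difference was -0.18. Of 20 cholesterol synthesis genes 16 were negative (median -0.09), among them Scd2, a fatty acid desaturase, at -0.38 (SE 0.25). Of 18 ribosomal protein genes 16 were positive with a median of 0.03, and the 27 oxidative phosphorylation genes (median -0.01) and 26 cell cycle genes (median -0.01) were split about evenly or leaned lower. None of the members of these lists had an adjusted p under 0.05.

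Lipid and iron genes of macrophages included some of the larger values outside the lists above. Apoe, the lipid carrier that macrophages secrete, read 9.46, 9.96, 9.77 and 10.22 in control and 9.52, 9.07, 9.68 and 9.44 in RbpjiΔEC arrays (difference -0.43, SE 0.18). Fabp5, a carrier of fatty acids inside cells, read 9.51, 9.43, 10.25 and 9.15 against 8.79, 7.82, 9.18 and 9.58 (difference -0.75, SE 0.36, and -0.78 without control array 1), with its other probe set at -0.33. Slc11a1, a metal transporter of phagosomes, read 8.68, 7.79, 7.97 and 8.30 against 7.88, 7.73, 7.63 and 7.55 (difference -0.49, SE 0.18, and -0.32 without control array 1). The groups overlapped in each of the 3, and the lists they came from had medians of -0.01 over 17 lipid genes and -0.03 over 18 iron and heme genes. The general macrophage list lay on the same side as these genes, and its part in them was not tested.

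Tgfb1, a cytokine that restrains immune cells, read 9.37, 9.56, 9.38 and 9.62 in control and 9.65, 10.07, 9.55 and 9.97 in RbpjiΔEC arrays (difference 0.33, SE 0.13), but its other probe set gave -0.22. The 21 genes of the TGF-beta pathway had a median of 0.00. Mmp9, a matrix protease of neutrophils, was on the neutrophil list as well, with 7.15 to 7.91 against 7.04 to 7.15 (difference -0.40, SE 0.14), and was not clear of the background. Hk1, the first enzyme of glycolysis, read 8.73, 8.48, 8.25 and 8.63 against 9.36, 8.60, 8.93 and 8.73 (difference 0.38, SE 0.17), and the 17 glycolysis and hypoxia genes had a median of 0.01. Lysosomal (20 genes, -0.02), ER chaperone and stress (21 genes, 0.03) and heat shock genes (11 genes, 0.02) had medians of similar size.

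Among markers of further cell types, 7 of 21 T and NK cell genes were clear of the background (median difference 0.03), and Cd3e, a chain of the T cell receptor complex, read 6.37 to 7.01. Cd8b1, a chain of the CD8 co-receptor, read 6.61 to 6.74 in control and 6.80 to 7.16 in RbpjiΔEC arrays (difference 0.33, SE 0.09), with no overlap but at background. Mast cell, basophil and eosinophil genes (2 of 13 clear of the background) had a median of 0.06, with Cpa3, a mast cell protease, at 6.77 to 7.41 in control and 6.52 to 8.22 in RbpjiΔEC arrays. Tumour epithelial genes (5 of 11) had a median of -0.02, with Epcam, an epithelial adhesion protein, at 8.16 to 8.43 against 8.08 to 8.93. Dendritic cell genes (12 of 14) had a median of -0.08, with Flt3, a growth factor receptor, at 0.36 (SE 0.22). Mesothelial and fibroblast genes (4 of 15) had a median of 0.01.

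The genes of largest spread were chosen by their residual SD within groups, so a spread above the group difference was built into the choice. Sets of these genes went together. Cpe, an enzyme that trims peptide hormones, had the largest residual SD of the genes above the median level, 1.55. It read 6.96, 9.32, 9.64 and 10.05 in control and 8.84, 6.40, 10.03 and 9.94 in RbpjiΔEC arrays. Col3a1 (type III collagen), Upk3b (a mesothelial surface protein), Aldh1a1 (a retinoic acid enzyme), Tm4sf1 and Cald1 (an actin-binding protein) were likewise lowest in control array 1 and RbpjiΔEC array 2. Col3a1 read 6.95 and 6.70 there and 8.16 to 9.24 in the other 6 arrays. The genotype differences of Cpe, Col3a1 and Upk3b were -0.19, 0.06 and -0.19.

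Immediate early genes, which respond within minutes to stimulation or handling, had their highest list mean of each group in control array 1 (9.84) and RbpjiΔEC array 1 (9.57). Fos read 12.05, 8.82, 9.60 and 8.69 in control and 11.11, 9.92, 9.85 and 9.22 in RbpjiΔEC arrays (difference 0.23, SE 0.70). Egr1 read 10.95 and 10.71 in those arrays and 8.31 to 9.15 elsewhere. Of 26 such genes 13 were positive and 13 negative, with a median of -0.03. Retnla, a secreted protein of alternatively activated macrophages, was 12.05 in control array 1 and 8.79 to 9.92 elsewhere.

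A further set of genes, picked after their values were seen, was low in control array 4 and in RbpjiΔEC arrays 1 and 2. Mgl2, a lectin receptor, read 10.63, 9.95, 10.11 and 8.22 in control and 8.55, 8.26, 9.65 and 10.46 in RbpjiΔEC arrays, and Ccl17, a chemokine for T cells, 10.03, 9.20, 9.87 and 8.85 against 8.82, 7.65, 9.93 and 10.23. Ear3, a ribonuclease, and Dab2, an endocytic adaptor, had their 3 lowest values in the same arrays, and Ms4a6d was lowest in RbpjiΔEC arrays 1 and 2. Principal components 1 and 2, with 35.1% and 17.3% of the variance, did not separate the genotypes. On component 1 the control arrays stood from -28 to 23.1 and the RbpjiΔEC arrays from -15.6 to 12.2. Control array 1 (-28) and RbpjiΔEC array 1 (-15.6) were lowest there and also had the lowest 18S signals, 11.23 and 11.78. The highest 18S signal, 13.04 in control array 2, went with 8.7 on component 1. Whether component 1 and the 18S signal are linked was not tested.

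**Figure D5:**
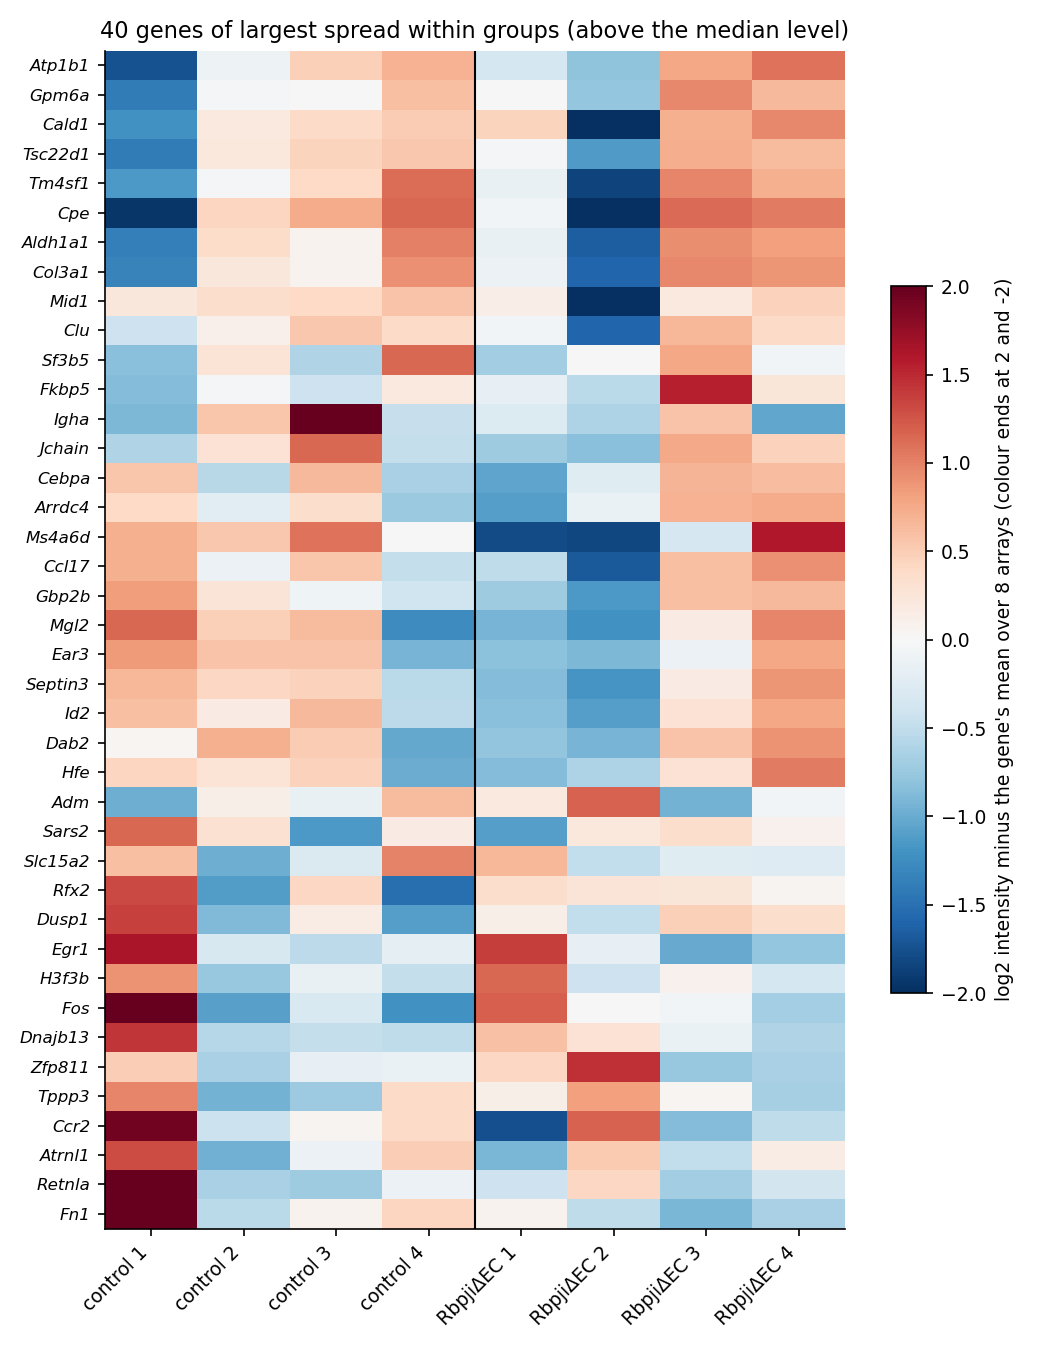
The 40 genes of largest residual SD among genes above the median level (rows) in the 8 CCR2- arrays (columns), as log2 intensity minus the gene's mean over the arrays, ordered by similarity. Blocks of genes follow single arrays, such as Cpe and Col3a1 in control array 1 and RbpjiΔEC array 2. The blocks cross the line between the genotypes, which the choice by spread within groups favours.

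Whether the genotype difference itself differed between the sort labels was tested over all 16 arrays. The deposited CCR2+ columns appeared to have been scaled otherwise than the CCR2- columns, so processing went with the label in this test. limma called 0 of 18194 genes (0%) for this interaction at an adjusted p under 0.05, and 555 (3.05%) had an unadjusted p under 0.05. Clec4d had the smallest p: its difference was -0.65 (SE 0.10) in CCR2- and 0.08 (SE 0.10) in CCR2+ arrays, which gives -0.73 (SE 0.14, adjusted p = 0.999). Focad stood at -0.73 and 0.15. C1qa stood at -1.0 and -0.05, for an interaction of -0.96 (SE 0.33), and Cd69 at 0.67 and -0.01, for 0.68 (SE 0.26).

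The opposite arrangement was measured for Sec61b, a subunit of the channel that passes proteins into the endoplasmic reticulum, with -0.02 (SE 0.17) in CCR2- and -1.13 (SE 0.17) in CCR2+ arrays. Acp5, an acid phosphatase of macrophages, stood at 0.05 and -1.05, and Rasgrp1, an activator of Ras in lymphocytes, at 0.01 and -0.42. Cblb, a ubiquitin ligase that restrains lymphocyte activation, stood at -0.24 and 0.84. None of these interactions passed the adjusted test.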

How the data were processed

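The authors deposited linear intensity values of 45101 Affymetrix probe sets; their normalization was not given in the sources used here. All values of the 8 CCR2- columns (100%) became whole numbers on multiplication by a divisor of at most 22 (tolerance 0.001), and their medians ran from 187 to 270. Intensities were therefore log2 transformed and quantile normalized over these 8 arrays with limma 3.58.1 in R 4.3.3. Of the probe sets, 34958 had 1 gene symbol in the platform annotation; 932 with several and 9211 unlisted were left out. The probe set of highest mean stood for its gene (9012 genes had several). No intensity filter was applied. Genotypes were compared with limma (lmFit, eBayes, two-sided, Benjamini-Hochberg over 18194 genes, threshold 0.05); the interaction used quantile normalization over 16 arrays. The method was run on simulated data with noise independent between genes, unlike the blocks of genes above, so its power here was not measured. Array controls had exact permutation tests. The number of arrays limits precision. Detection calls and scan dates were not used here, so batches were not analysed.

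The members and the 44 gene lists (705 of 780 genes measured) were chosen with earlier results of these data known. Genes named were taken from a rule: fixed macrophage, B cell and Notch genes, the 12 smallest p and 10 largest non-overlapping differences per direction above the median level, 2 members per list and 5 interactions per direction. The text prints part of them, picked after the values were seen, and adds others, among them the genes with differences beyond 1, further list members and the genes of largest spread. Same-numbered control and RbpjiΔEC arrays deviated from their group means with correlations of 0.20, -0.07, -0.10 and 0.12. With another number the highest were 0.19, 0.12, 0.18 and 0.30, so genotypes were not paired. Same-numbered CCR2- and CCR2+ arrays gave 0.05, -0.03, 0.21 and 0.40 in control, and 0.24, 0.04, 0.06 and 0.13 in RbpjiΔEC. With another number the highest were 0.12, 0.08, 0.06 and -0.01, and -0.03, 0.03, 0.07 and 0.06. Some same-numbered arrays were thus more alike, and whether they share an animal was not tested. The main interaction fit left the number out, and the fit with it as a block had a correlation of 0.117. Alternatives were other normalizations, filters, probe set rules, weights, a replicate block and fits without single arrays.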

Additional observations from a re-analysis of the deposited data

Results flagged for a closer look

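In 406 groups of 4 arrays, from 159 genes and 44 lists, 14 had an extreme array whose gap to its neighbour exceeded Dixon's 95% critical share of the group's range; chance gives about 1 in 20. In the control group these were Focad in array 1 (9.26, the others 8.62 to 8.67), Egr1 in array 1 (10.95, the others 8.79 to 9.12), Cr2, a complement receptor of B cells, in array 1 (9.01, the others 10.06 to 10.11), Cd3e in array 1 (7.01, the others 6.37 to 6.47) and Ear3 in array 4 (8.14, the others 9.65 to 9.93). In the RbpjiΔEC group, array 1 stood apart in Epcam (8.08, the others 8.80 to 8.93), Cd68 (8.42, the others 8.77 to 8.81), Tyrobp, a signalling adaptor of myeloid cells (9.80, the others 10.60 to 10.67), Cd9, a tetraspanin (9.38, the others 10.15 to 10.19), Ccl6 (10.10, the others 10.74 to 10.85) and the mean of the mast cell, basophil and eosinophil list (6.85, the others 7.20 to 7.22). Array 2 stood apart in F13a1, a clotting factor subunit of monocytes (7.66, the others 6.77 to 6.87). Array 3 stood apart in Csf1r (8.94, the others 9.35 to 9.41) and array 4 in the mean of the inflammatory and NF-kB list (9.10, the others 9.04 to 9.05).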

How the results depend on the processing

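The count of genes called between genotypes was 0 in every setting run but 1. Without any normalization limma called 12 genes, all lower in RbpjiΔEC (Ngp, Chil3, Ms4a6d, Camp, S100a9, Fn1, Slfn4, Lcn2, Ltf, Ccr2, C1qa and S100a8; adjusted p from 0.000295 to 0.00378). There the median of all genes was -0.16, and the prior degrees of freedom were 31800 against 3.31, so that nearly 1 common spread served all genes. The smallest adjusted p in the other settings was 0.15, for Clec4d with 16 arrays fitted together. The unadjusted counts of 179 higher and 190 lower moved to 46 and 54 with median centring, 79 and 84 above the lowest tercile, 352 and 377 with array weights, 3 and 265 without normalization, and 407 and 389 without control array 1 and RbpjiΔEC array 1. Leaving out single arrays gave 129 to 353 higher and 156 to 302 lower. Fits without 2 arrays, and the kept probe set of Msr1, were chosen after seeing the data. The fit with the replicate number as a block called 0 genes, with 173 higher and 204 lower at an unadjusted p under 0.05, and changed no call. The interaction stayed at 0 calls in all settings run, the replicate block included. Its count of 555 at an unadjusted p under 0.05 was 326 with median centring, 305 above the lowest tercile, 1143 with array weights, 758 with the block and 409 to 944 leaving out single arrays (944 without CCR2- control 4, 912 without CCR2+ RbpjiΔEC 2, 877 without CCR2- RbpjiΔEC 1).

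A gene counted as reversed where its sign turned and its difference exceeded its SE. That held for S100a9 (0.10), S100a8 (0.04), Ltf (0.02), Igha (0.35) and Ptprc (0.02) without control arrays 2 and 3, for Mrc1 (0.12) and Cd68 (0.02) without control array 1 and RbpjiΔEC array 1, for Ptprc (0.00) with median centring, and for Oas3 (-0.02), Tie1 (-0.02), Src (-0.03) and Ncstn (-0.01) without normalization. The values of these last 4 genes near 0 go with the median of -0.16 over all genes in that setting. Leaving out single arrays moved Msr1 between -0.52 and 0.00; the latter, without control array 1, is of another probe set, and the same probe set gave -0.33. The causes of the others were not tested. No sign was read from 49 further genes smaller than their SE.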
